A study of Homo sapiens with 7 samples.

Results

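The HOX genes encode homeobox transcription factors that lie side by side in 4 clusters, HOXA on chromosome 7, HOXB on chromosome 17, HOXC on chromosome 12 and HOXD on chromosome 2. Here 37 of the 20163 protein-coding genes were examined, 10 in HOXA, 9 in HOXB without HOXB13, 9 in HOXC and 9 in HOXD. The data were loops from H3K27ac HiChIP, a method that joins DNA ends that were close together in the nucleus and enriches the pairs that carry acetylation of lysine 27 of histone H3, a mark of active promoters and enhancers. A loop was taken as a HOX loop when 1 of its anchors covered a window of 500 bp centred on any annotated start site of a member. This rule found 86 HOX loops among the 163530 loops of Ishikawa cells, 99 among the 42027 of T-47D cells and 105 among the 149226 of LNCaP cells.

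Ishikawa is a human endometrial adenocarcinoma line, T-47D a human breast carcinoma line and LNCaP a human prostate carcinoma line. The 4 Ishikawa samples were 2 treated with the vehicle DMSO and 2 treated with 10 nM 17β-estradiol (E2) for 1 h, whereas the labels give no treatment for the 1 T-47D sample and the 2 LNCaP samples. The samples of a line had been merged into 1 list, so none of the values below has a replicate error, no test was possible, and intervals at 95% cover counting error only. DMSO and E2 could not be compared. The enzyme was DpnII for Ishikawa and MboI for the others, both cutting at GATC. The sonicator, the read length, the sequencer and the sequencing depth per sample also differed between Ishikawa and the other lines. By the study's methods, the depth was higher for Ishikawa. The part of these differences in any difference from Ishikawa cannot be told apart from that of the cell line.

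The read pairs of a list came to 1040329 for Ishikawa, 351260 for T-47D and 1805322 for LNCaP, and every listed loop had 3 read pairs or more. Levels are therefore given as read pairs per 100000 read pairs of the list. A gene with no loop is called listed with no loop, since pairs below the minimum are not in the lists. The Ishikawa list was a sum of 4 parts, and its HOX loops found in 2 parts had 6 read pairs or more. The minimum thus appeared to apply within each part. A contact spread thinly over the parts could then be missing, so absences and levels of Ishikawa are not strictly comparable with the others. The labels were checked with marker genes. The promoter of KLK3, which encodes prostate-specific antigen, had 2936 read pairs in LNCaP, 6 in Ishikawa and no listed loop in T-47D. The breast luminal factor GATA3 had 1063 in T-47D, 7 in Ishikawa and no listed loop in LNCaP, and the Müllerian duct factor PAX8 had 162 in Ishikawa and no listed loop in the other lines. FOLH1, a marker of LNCaP, was listed with no promoter loop in LNCaP. Of the other markers examined, KLK2, TRPS1 and EMX2 were highest in LNCaP, T-47D and Ishikawa, in that order. ESR1 and SPDEF separated the lines less. ESR1, taken as a T-47D marker, had 55.5 per 100000 in T-47D and 28.7 in Ishikawa. SPDEF, taken as a LNCaP marker, had 56.9 in LNCaP and 40.1 in T-47D.

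As background, genes at the 3′ end of a HOX cluster pattern the front of the embryo and genes at the 5′ end the rear, and the order along the chromosome follows the order of their domains along the body. HOX proteins bind DNA with cofactors of the PBX, MEIS and PKNOX families. Contacts of the clusters with enhancers in the flanking regions are best known from HOXA and HOXD in limbs, and 5′ genes of the clusters are active in the developing reproductive tract, where HOXA10 and HOXA11 pattern the uterus.

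Sequences from some anchors of HOX loops are given first, on GRCh37 (the build named hg19 in the study) and from 5′ to 3′. The 4 promoters are RefSeq entries of 250 bases before to 50 bases after a start, each found at 1 exact position of GRCh37. They are shown because they lay inside HOX anchors, and capitals mark every match on either strand to 5 motifs. GATC is the site of both enzymes. The TATA box was searched as TATAAA and the box bound by NF-Y as CCAAT. The core of the CTCF motif was searched as CAGNGGGC and a motif of HOX with PBX proteins as TGATTNAT. The HOXC4 entry is at chr12:54410422-54410721 on the plus strand and was shared with HOXC5 in RefSeq. It lay in an anchor in T-47D and in LNCaP. The HOXA3 entry is at chr7:27192153-27192452 on the minus strand and lay in an anchor of all 3 lists. The HOXA10 entry is at chr7:27213890-27214189 on the minus strand and lay in an Ishikawa and a LNCaP anchor. The HOXD8 entry is at chr2:176994183-176994482 on the plus strand and lay in an Ishikawa anchor.
HOXC4 promoter: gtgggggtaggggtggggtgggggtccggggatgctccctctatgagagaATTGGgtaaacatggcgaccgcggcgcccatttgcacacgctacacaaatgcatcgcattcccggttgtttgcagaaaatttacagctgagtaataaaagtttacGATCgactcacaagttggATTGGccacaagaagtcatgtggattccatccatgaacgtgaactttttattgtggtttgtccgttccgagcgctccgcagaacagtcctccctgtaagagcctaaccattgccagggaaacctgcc
HOXA3 promoter: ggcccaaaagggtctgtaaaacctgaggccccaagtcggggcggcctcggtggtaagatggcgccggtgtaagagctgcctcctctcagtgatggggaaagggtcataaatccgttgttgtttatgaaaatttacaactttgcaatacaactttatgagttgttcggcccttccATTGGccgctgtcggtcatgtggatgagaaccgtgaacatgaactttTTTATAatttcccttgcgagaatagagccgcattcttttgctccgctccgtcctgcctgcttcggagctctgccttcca
HOXA10 promoter: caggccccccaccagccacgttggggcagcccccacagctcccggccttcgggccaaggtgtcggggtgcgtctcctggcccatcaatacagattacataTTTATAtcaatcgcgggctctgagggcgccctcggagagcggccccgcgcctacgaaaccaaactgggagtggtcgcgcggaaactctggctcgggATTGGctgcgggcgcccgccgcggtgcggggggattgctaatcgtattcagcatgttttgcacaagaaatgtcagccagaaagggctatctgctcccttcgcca
HOXD8 promoter: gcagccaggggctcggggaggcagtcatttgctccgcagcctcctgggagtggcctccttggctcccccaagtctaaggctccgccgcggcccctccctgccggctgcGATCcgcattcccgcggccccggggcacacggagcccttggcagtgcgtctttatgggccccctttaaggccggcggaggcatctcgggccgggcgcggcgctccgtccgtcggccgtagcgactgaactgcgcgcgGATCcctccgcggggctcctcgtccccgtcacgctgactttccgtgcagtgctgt

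The 2 regions below are not promoters of protein-coding genes by the rule used here. The first, chr12:54197917-54198216, lies at the centre of the only partner region that was joined to HOX promoters in all 3 lists. The second, chr12:54373737-54374036, lies in the anchor inside HOXC that carried the most read pairs in T-47D (597), at the centre of its overlap with a LNCaP anchor (11). Both are given on the plus strand with the same capitals. The first held 2 matches to CCAAT and the second held no match to the 5 motifs.
Region joined in 3 lists: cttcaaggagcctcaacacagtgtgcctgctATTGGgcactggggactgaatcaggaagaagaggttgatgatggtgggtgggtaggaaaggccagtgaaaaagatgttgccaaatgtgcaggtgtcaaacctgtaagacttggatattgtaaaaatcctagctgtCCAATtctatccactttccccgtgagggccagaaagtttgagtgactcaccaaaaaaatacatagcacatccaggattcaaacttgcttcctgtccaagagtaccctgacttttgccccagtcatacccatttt
Region inside HOXC: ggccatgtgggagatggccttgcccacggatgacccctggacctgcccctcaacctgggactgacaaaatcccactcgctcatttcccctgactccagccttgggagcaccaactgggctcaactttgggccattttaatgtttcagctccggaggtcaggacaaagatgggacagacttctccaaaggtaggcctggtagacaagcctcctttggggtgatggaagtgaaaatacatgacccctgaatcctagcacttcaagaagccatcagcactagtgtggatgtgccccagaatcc

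Of the 37 members, 20 had an entry in the RefSeq promoter table, with 26 distinct sequences. These were 9 HOXA members, 8 of HOXD, 2 of HOXC that share an entry and 1 of HOXB. Of the sequences, 7 belong to HOXA3. CCAAT was present in 17 of the 26 (65.4%), against 34.6% of all 34943 promoters in the table. TATAAA was present in 5 (19.2%, against 11.6%), the HOX-PBX motif in 2 (7.69%, against 2.82%), the CTCF core in 3 (11.5%, against 11.1%) and the enzyme site in 11 (42.3%, against 41.8%). The median GC content was 58% against 58.7%, and the median number of CG dinucleotides was 22.5 against 14. These are counts of letters in windows, not of bound sites.

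HOXC in T-47D stood above every other cluster and line. It had 72 loops with 1629 read pairs, which is 464 per 100000 (95% interval 442 to 487), and between 301 with spans of 20 kb to 1 Mb and 710 with a minimum of 10 read pairs. The same cluster had 780 read pairs in 81 loops in LNCaP (43.2 per 100000, 40.2 to 46.3) and 244 in 32 loops in Ishikawa (23.5 per 100000, 20.6 to 26.6). The level in T-47D was thus 19.8 times that in Ishikawa and 10.7 times that in LNCaP, and the level in LNCaP was 1.84 times that in Ishikawa. With lists thinned to the T-47D total, the levels of LNCaP (36.9 per 100000) and Ishikawa (33.0) were closer. Loops within 1 Mb of the cluster that were not HOX loops had ratios of 0.95 for T-47D over Ishikawa and 1.40 for T-47D over LNCaP. HOX loops made up 52.4% of the read pairs within 1 Mb of HOXC in T-47D, 12.5% in LNCaP and 5.02% in Ishikawa. Beside the Ishikawa value, the first 73 Mb of chromosome 12, which hold HOXC, had 241 loops per Mb in Ishikawa against 46.5 over the rest of the chromosome, whereas the densities were 18.4 against 16.9 in T-47D and 58.2 against 55.3 in LNCaP. The part of this dense segment in the HOXC result was not tested.

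HOXB followed another order. It had 236 read pairs in 26 loops in T-47D (67.2 per 100000, 58.9 to 76.3), 262 in 24 loops in Ishikawa (25.2 per 100000, 22.2 to 28.4) and only 25 in 4 loops in LNCaP (1.38 per 100000, 0.896 to 2.04). Ishikawa was 18.2 times LNCaP for HOXB, although the other loops within 1 Mb of the cluster had a ratio of 0.267. T-47D was 2.67 times Ishikawa, beside a ratio of 2.04 for those other loops. For T-47D over LNCaP the ratios were 48.5 and 0.547. The order of T-47D and Ishikawa depended on the start sites used. With the 5′ end of each gene record as its only start, HOXB had 2.28 per 100000 in T-47D and 25.2 in Ishikawa. The LNCaP level was then 1.11 per 100000, from 20 read pairs against 8 for T-47D. The size of the T-47D excess over LNCaP therefore also depended on the start sites.

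In Ishikawa and T-47D the levels of HOXA and HOXD were the lowest of the 4 clusters, and in LNCaP that of HOXA was above that of HOXB. HOXA held 100 read pairs in 19 loops in Ishikawa (9.61 per 100000, 7.82 to 11.7), 82 in 20 loops in LNCaP (4.54 per 100000, 3.61 to 5.64) and 3 in 1 loop in T-47D. Ishikawa was 2.12 times LNCaP, beside a ratio of 1.16 for other loops within 1 Mb. Most HOXA loops were weak, and with lists thinned to the T-47D total LNCaP had none. HOXD had 67 read pairs in 11 loops in Ishikawa (6.44 per 100000, 4.99 to 8.18) and no HOX loop in the other lists. After the same thinning, Ishikawa kept 1 HOXD loop with 8 read pairs. Over all clusters, HOX loops took 0.532% of the T-47D read pairs, 0.0647% of those of Ishikawa and 0.0491% of those of LNCaP. HOXC alone held 87.2% of the HOX read pairs in T-47D and 87.9% in LNCaP, against 36.3% in Ishikawa, where HOXB held 38.9%.

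Ishikawa had the most members with a loop. A promoter loop was present for 23 of the 37 members in Ishikawa (62.2%, Wilson interval 46.1 to 75.9), beside 57.3% of all protein-coding genes. It was present for 12 in T-47D (32.4%, 19.6 to 48.5), beside 49.2% of all genes, and for 12 in LNCaP (32.4%, 19.6 to 48.5), beside 58.1%. The Ishikawa share was near the background and the other shares were below it. By cluster, Ishikawa listed 8 of 10 HOXA, 6 of 9 HOXB, 5 of 9 HOXC and 4 of 9 HOXD genes. T-47D listed 2, 5, 5 and 0, and LNCaP 4, 3, 5 and 0.

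HOXA3, HOXA6, HOXB3, HOXC4, HOXC6 and HOXC9 had a loop in all 3 lists. The 7 members with a loop in 2 lists were HOXA9 and HOXA10 (Ishikawa and LNCaP), HOXB6 (Ishikawa and LNCaP), HOXB7 and HOXB8 (Ishikawa and T-47D), and HOXB9 and HOXC13 (T-47D and LNCaP). Of the 15 in 1 list, HOXA2, HOXA4, HOXA5, HOXA7, HOXB4, HOXB5, HOXC8, HOXC12, HOXD3, HOXD8, HOXD9 and HOXD13 were in Ishikawa, HOXB2 and HOXC11 in T-47D, and HOXC5 in LNCaP. In Ishikawa, HOXA4 and HOXD13 (0.288 per 100000 each) lay below the T-47D minimum of 0.854, and HOXA2 (0.865) lay just above it. For these genes the lack of a T-47D loop therefore shows no difference between the lines. The 9 members with none were HOXA11, HOXA13, HOXB1, HOXC10, HOXD1, HOXD4, HOXD10, HOXD11 and HOXD12.

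Anchors were wide relative to the genes, and this limits what a value for 1 member means. Members on the same anchor share every read pair of it. In Ishikawa 1 anchor of 50.3 kb (chr17:46647135-46697467) covered promoters of HOXB3, HOXB4, HOXB5, HOXB6, HOXB7 and HOXB8, and all 6 therefore had 262 read pairs. Another of 28.2 kb (chr7:27186273-27214485) covered promoters of HOXA3, HOXA6, HOXA7, HOXA9 and HOXA10, which all had 88. Annotated start sites add to the sharing, since HOXA3, HOXB3, HOXC4, HOXC6 and HOXD3 have start sites far upstream, beside or within neighbouring members. The RefSeq entry of HOXD3 lay in no anchor of any list, and that of HOXA6 lay in an anchor of Ishikawa only. The choice of start site decided several values. With the 5′ end of each gene record as its only start, HOXC6 had 615 read pairs in T-47D and no loop in the other lists, HOXC9 had 491 in T-47D, 23 in Ishikawa and none in LNCaP, and HOXC4 had 376 in LNCaP, 135 in T-47D and none in Ishikawa. HOXA9 then kept its 68 in LNCaP and had none in Ishikawa, and HOXA10, HOXB2 and HOXB7 had no loop in any list. The HOXA9 start used there, at 27214799, lies among the HOXA10 starts. The RefSeq entry of HOXA9 lay in the Ishikawa anchor and in no LNCaP anchor. HOXC11 and HOXC13 kept the same counts. The looped members lay on 14 anchors of Ishikawa, 13 of T-47D and 11 of LNCaP.

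**Figure D1:**
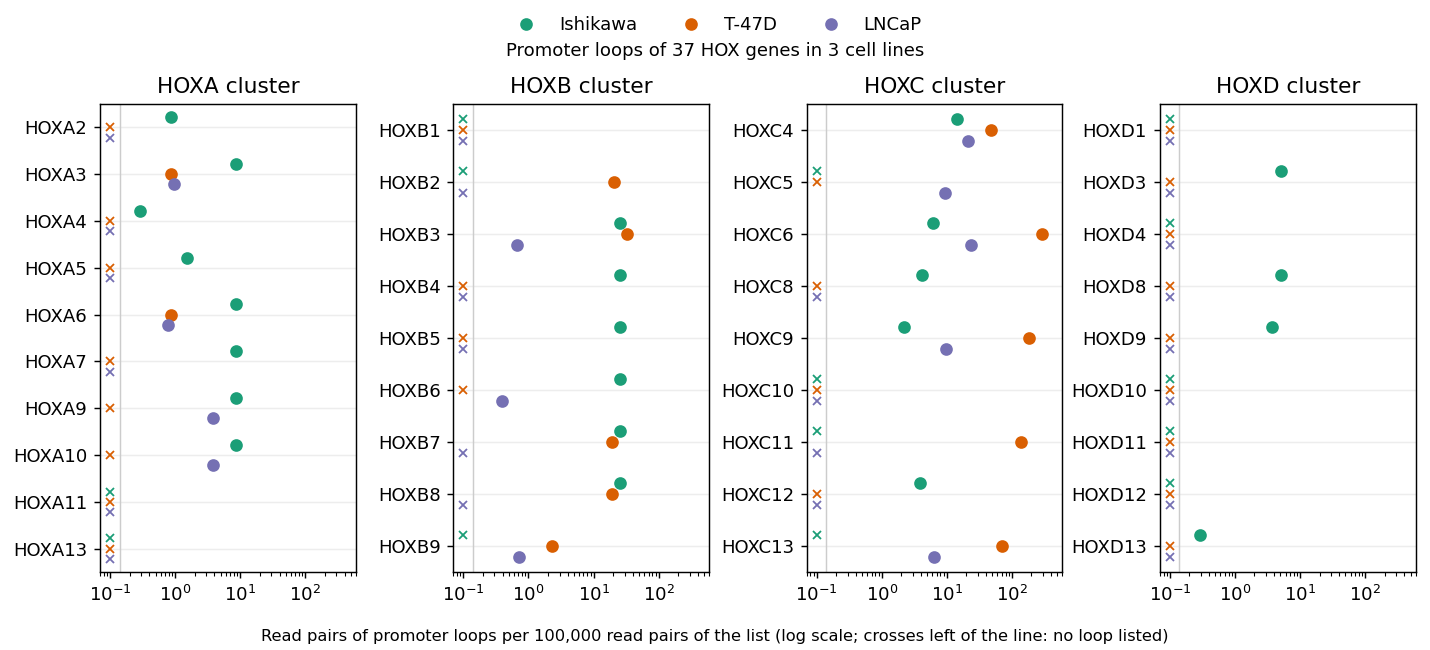
Read pairs of promoter loops per 100,000 read pairs of the list (x axis, log scale) for each of the 37 HOX genes (y axis), 1 panel per cluster and 1 colour per cell line, with 1 list per line and no error bars. Crosses to the left of the grey line mark genes listed with no loop. HOXC6, HOXC9, HOXC11 and HOXC13 lie farthest right in T-47D, and HOXD genes have points in Ishikawa only.

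HOXC4, HOXC6 and HOXC9, which lie toward the 3′ end of HOXC, were looped in each line, partly from different start sites. HOXC6, whose product patterns the thoracic region, had 1035 read pairs in T-47D (295 per 100000), 430 in LNCaP (23.8) and 63 in Ishikawa (6.06). T-47D was 48.7 times Ishikawa and 12.4 times LNCaP, and LNCaP was 3.93 times Ishikawa. In T-47D the HOXC6 value stood at the 99.97 percentile of all protein-coding genes. It came from 43 loops of 3 anchors, of which the one over the start at 54384408 carried 615 read pairs and was not present in the other lists. LNCaP instead had anchors over the starts at 54409681 and 54422224.

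HOXC9 had 651 read pairs in T-47D (185 per 100000), 178 in LNCaP (9.86) and 23 in Ishikawa (2.21). T-47D was 83.8 times Ishikawa and 18.8 times LNCaP. HOXC4, the member nearest the 3′ end, differed least of these 3. It had 166 read pairs in T-47D (47.3 per 100000), 376 in LNCaP (20.8) and 147 in Ishikawa (14.1), so T-47D was 3.34 times Ishikawa and 2.27 times LNCaP. The Ishikawa read pairs of HOXC4 came from anchors over the starts at 54431638 and 54447619, the latter in no anchor of the other lists.

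At the 5′ end, HOXC13, which is known for its role in hair and nails, had 251 read pairs in T-47D (71.5 per 100000) and 116 in LNCaP (6.43), a ratio of 11.1, and was listed with no loop in Ishikawa. HOXC11 had 494 in T-47D (141 per 100000) and no loop in the other lists. The anchor of HOXC11 (chr12:54365726-54371999) also covered the start of HOTAIR, a long noncoding RNA transcribed from the opposite strand, so their contacts cannot be told apart. HOXC12 had 41 read pairs (3.94 per 100000) and HOXC8 43 (4.13 per 100000), both in Ishikawa only. HOXC5 had 170 (9.42 per 100000) in LNCaP only.

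HOXC10 was listed with no loop in any line, but in T-47D only by a narrow margin. The anchor chr12:54373248-54378379 ended 470 bp from a HOXC10 start and so 220 bp outside its window. With promoters of 2 kb HOXC10 had 1174 read pairs in T-47D, from 742 at this anchor and 615 at the anchor chr12:54380727-54385145, which also count for HOXC6, with the 183 of the loop between them counted once. The same change gave HOXC5 52 read pairs in Ishikawa, HOXB2 17 in LNCaP and HOXD12 7 in T-47D, and no other member gained its first loop in a list.

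In T-47D, the strong HOXC loops stayed within the cluster. Of the read pairs, 76.0% joined points inside the cluster, 19.8% left it on the 5′ side and 4.17% on the 3′ side, whereas by number 37.5% of the 72 loops were inside, 44.4% left on the 5′ side and 18.1% on the 3′ side. With spans of 20 kb to 1 Mb alone, 45.5% of the read pairs were inside. The strongest loop had 191 read pairs and joined HOXC11 to chr12:54373248-54378379, the region beside HOXC10 that holds the sequence printed above and overlaps the long noncoding RNA gene HOXC-AS3. That region had 183 read pairs with HOXC6 (chr12:54380727-54385145) and 597 with 7 promoter anchors together. A further 155 read pairs joined that HOXC6 anchor to the anchor of HOXC6 and HOXC9 (chr12:54387493-54390694). HOXC13 had 63 read pairs with the region and 46 with HOXC11. In all, 20 T-47D loops with 641 read pairs joined member promoters to each other, against 8 with 141 in LNCaP and 4 with 29 in Ishikawa.

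On the 5′ side in T-47D, the anchor chr12:54196990-54199692, 133 kb from the cluster and in no gene, had 182 read pairs with 7 promoter anchors. HOXC11 took 64 of them, HOXC13 45 and the HOXC6 anchor over its upstream start 32. The next distal anchor, chr12:54237878-54240952, had 42. Among promoters of other genes, the shared promoter of CBX5 (heterochromatin protein) and HNRNPA1 (an RNA-binding protein) had 35, ATP5MC2 (a subunit of ATP synthase) 18 and ATF7 (a transcription factor) 17.

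LNCaP HOXC loops ran to both sides of the cluster. Inside were 28.8% of the read pairs, 32.1% left on the 3′ side and 39.1% on the 5′ side. The strongest loop had 52 read pairs and joined the anchor of HOXC6 and HOXC4 (chr12:54407657-54413145), which holds the HOXC4 sequence printed above, to chr12:54415065-54417414 in introns of the longer HOXC4 and HOXC6 transcripts. The same anchor had 34 with HOXC5 (chr12:54426097-54431012) and 32 with the promoter of SMUG1, a DNA repair glycosylase (chr12:54580555-54583712). The SMUG1 promoter had 76 read pairs with 5 member anchors, CBX5 and HNRNPA1 35 and ZNF385A 23.

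The most joined distal anchor in LNCaP was on the 5′ side, chr12:54147052-54151747, which overlaps the long noncoding RNA gene CISTR. It had 88 read pairs with 4 anchors, 31 of them with HOXC9. The partner of the strongest loop, chr12:54415065-54417414, had 73 with 4 anchors. The anchors chr12:54168015-54176541 on the 5′ side and chr12:54528325-54533424 in an intron of SMUG1 had 52 each. The region joined in all 3 lists had 42.

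Ishikawa HOXC loops ran mainly inside the cluster (41.8%) and to the 3′ side (51.6%), with 6.56% on the 5′ side. HOXC4 (chr12:54438734-54448375) had 23 read pairs with chr12:54412297-54421234, in introns of HOXC4 and HOXC6, and 23 with chr12:54465680-54473410, which overlaps the noncoding gene FLJ12825. HOXC12 (chr12:54348581-54353676) had 22 with chr12:54340415-54345550. Over several promoters, chr12:54412297-54421234 had 51 and chr12:54590753-54596372, which is 7.96 kb from SMUG1, had 42 with 4 anchors. The FLJ12825 anchor had 26. Of other promoters, those of SMUG1 had 7 (4 and 3 at different anchors) and GTSF1 3.

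**Figure D2:**
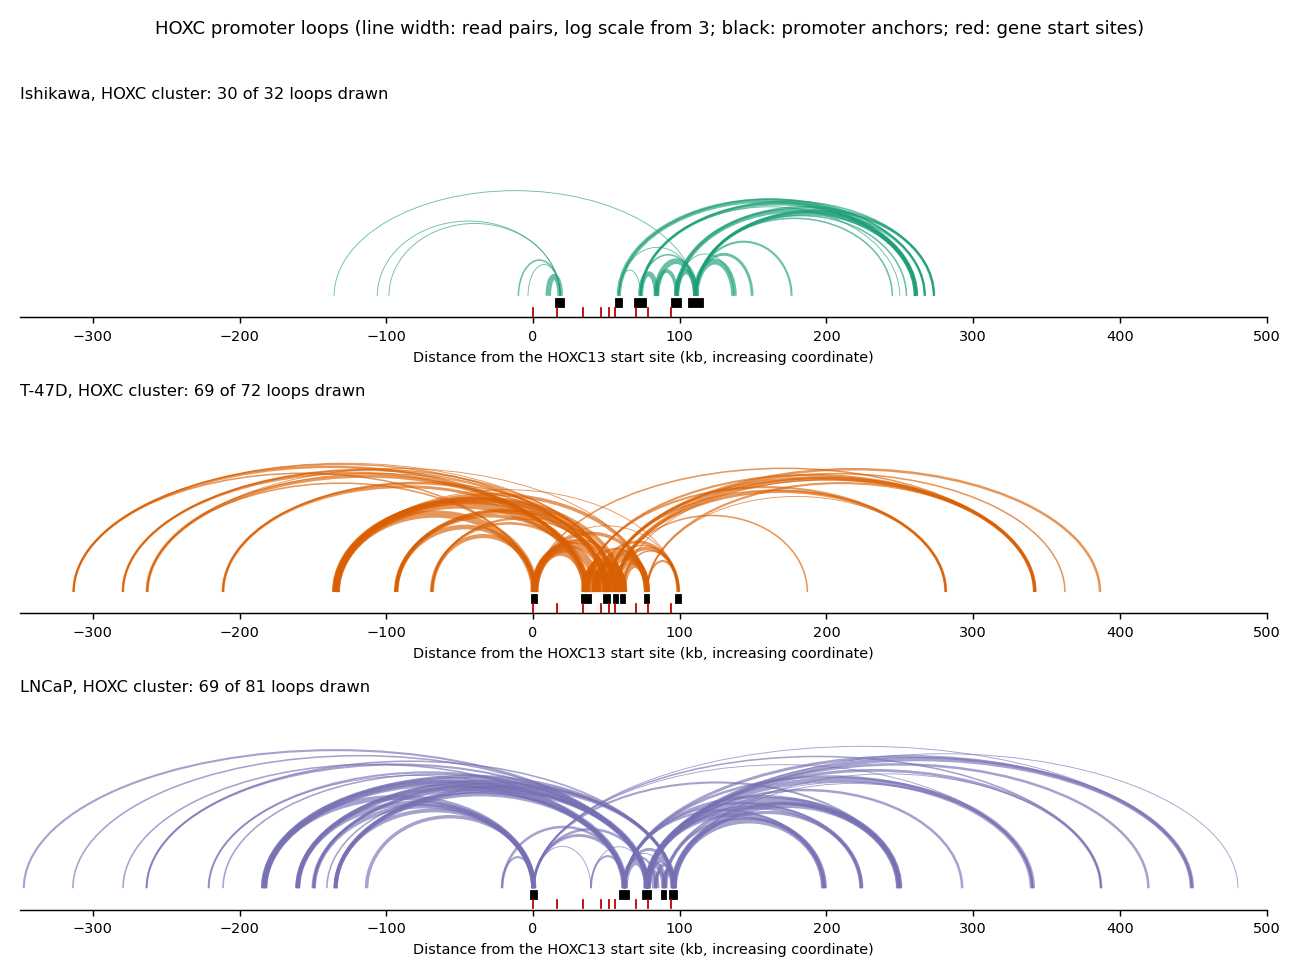
Loops of HOXC promoters in each line, by distance in kb from the HOXC13 start (x axis, plus strand), drawn as arcs whose line width grows with read pairs on a log scale from 3. Black marks promoter anchors and red marks gene start sites. The 69 of 72 T-47D loops in view gather inside the cluster and on the 5′ side, the 69 of 81 LNCaP loops spread to both sides and the 30 of 32 Ishikawa loops run inside and to the 3′ side.

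The region joined in all 3 lists, with a common stretch at chr12:54196990-54199142, had 182 read pairs with HOXC promoters in T-47D, 42 in LNCaP and 3 in Ishikawa. The Ishikawa support was at the minimum of the list. Of 125 partner regions over the 4 clusters, 108 were joined in 1 list, 16 in 2 and 1 in 3. Of the 16 in 2 lists, 10 belonged to HOXC, 3 to HOXA and 3 to HOXB.

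In HOXB, Ishikawa had loops of HOXB3 to HOXB8, T-47D of HOXB2, HOXB3 and HOXB7 to HOXB9, and LNCaP of HOXB3, HOXB6 and HOXB9. The values of HOXB3 were 32.5 per 100000 in T-47D (114 read pairs), 25.2 in Ishikawa (262) and 0.665 in LNCaP (12). T-47D was 1.29 times Ishikawa and 48.8 times LNCaP, and Ishikawa was 37.9 times LNCaP. The order of T-47D and Ishikawa turned with a minimum of 10 read pairs and after thinning, and with the 5′ end of the gene record alone HOXB3 had no loop in T-47D. HOXB2, which acts in hindbrain patterning, had 72 read pairs (20.5 per 100000) in T-47D only. HOXB7 and HOXB8, on 1 anchor in T-47D, had 67 there (19.1 per 100000) and 262 (25.2) in Ishikawa. HOXB9 had 2.28 per 100000 in T-47D (8 read pairs) and 0.720 in LNCaP (13), a ratio of 3.16, and this order turned with a minimum of 10 read pairs and with spans of 20 kb to 1 Mb. HOXB6 had 262 in Ishikawa and 7 in LNCaP, and HOXB4 and HOXB5 had their 262 in Ishikawa only.

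In Ishikawa, 68.3% of the HOXB read pairs left the cluster on its 3′ side, toward SKAP1, a gene of T cell adhesion signalling, 24.8% stayed inside and 6.87% left on the 5′ side. All came from the 50.3 kb anchor. It had 42 read pairs with chr17:46698307-46702562 over an exon of HOXB9, 25 with chr17:46576608-46580276 between HOXB1 and SKAP1, and 23 with the HOXB3 anchor chr17:46632028-46639044. Anchors in SKAP1 introns had 22 (chr17:46484367-46496327) and 19 (chr17:46423789-46428701). The promoters of CDK5RAP3, COPZ2 and CALCOCO2 had 3 each. Without that anchor, a setting chosen after the data were seen, no HOXB loop was left in Ishikawa.

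In T-47D, 82.2% of the HOXB read pairs stayed inside the cluster, 15.7% left on the 3′ side and 2.12% on the 5′ side. The strongest loop had 37 read pairs between HOXB2 and chr17:46623337-46627043, and the same partner had 32 with HOXB3 (chr17:46630704-46635263). A HOXB3 anchor at chr17:46658496-46660246 had 20 with chr17:46661543-46664679, in a HOXB3 intron. The first partner, which overlaps HOXB-AS1 and HOXB-AS3, had 85 read pairs with 4 anchors, the partner in the HOXB3 intron 48 and chr17:46640407-46643265, also in a HOXB3 intron, 30. Of other promoters, the shared one of CBX1 and SNX11 had 6, SCRN2 4 and SKAP1 4. Nearly all of these loops rested on start sites other than the 5′ end of the gene record: with that start alone, T-47D had 1 HOXB loop with 8 read pairs.

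LNCaP had 4 HOXB loops. Of their 25 read pairs, 17 went to the anchor over the promoters of PRAC1, PRAC2 and HOXB13 on the 5′ side, 10 from HOXB9 and 7 from the anchor of HOXB3 and HOXB6. HOXB3 had 5 with chr17:46623337-46625540, the position of the main HOXB partner of T-47D, and HOXB9 had 3 with the PRR15L promoter.

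**Figure D3:**
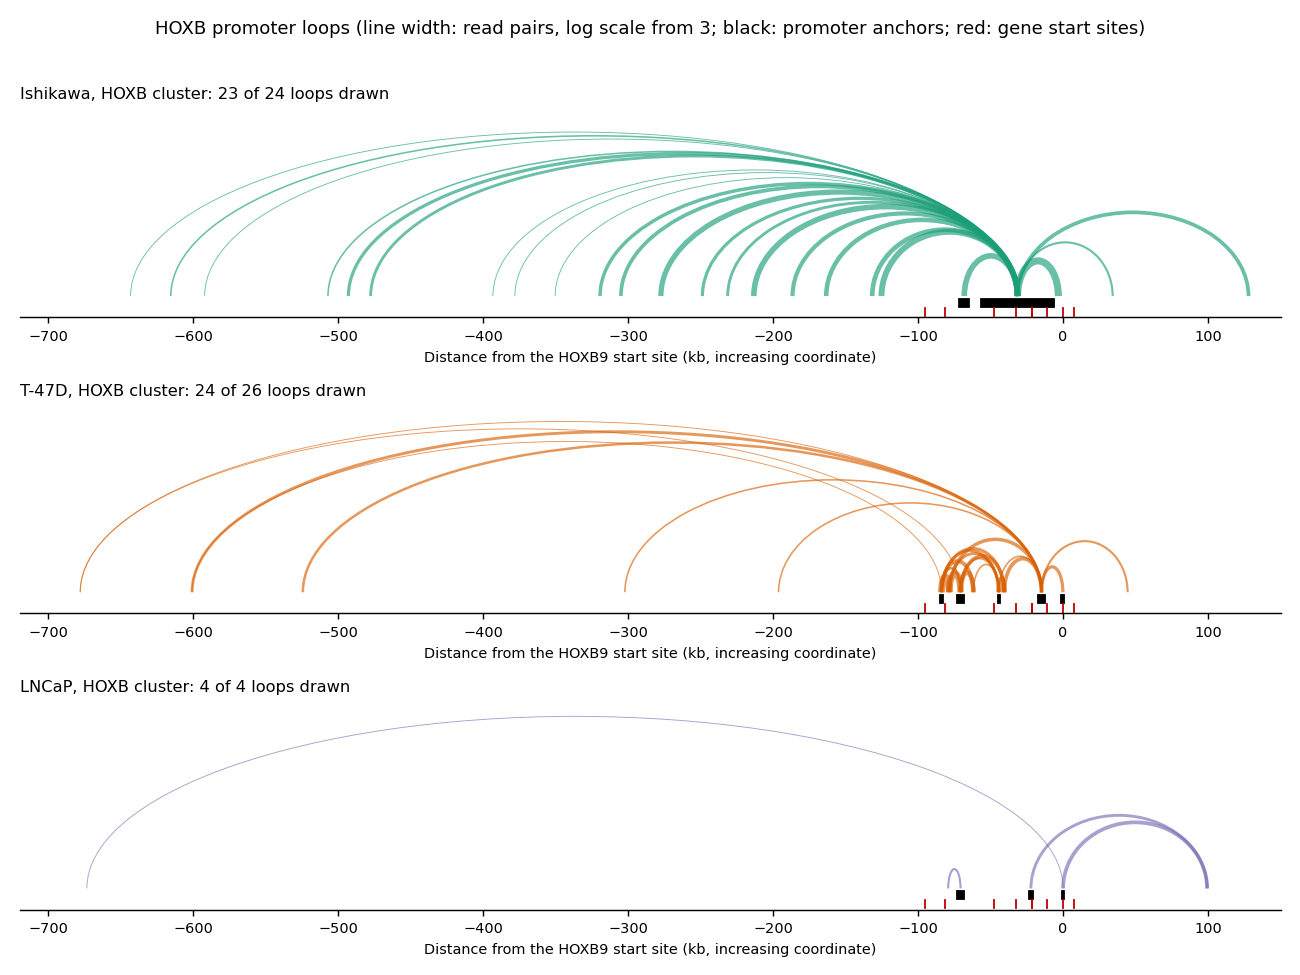
Loops of HOXB promoters in each line, by distance in kb from the HOXB9 start (x axis), drawn as in the HOXC plot. Of the Ishikawa loops, 23 of 24 are in view and fan out from 1 wide anchor to the 3′ side, 24 of 26 T-47D loops are in view and most stay within the cluster, and LNCaP has 4.

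HOXA contacts had low counts in each line and reached far. HOXA9 and HOXA10, both 5′ genes, had 88 read pairs in Ishikawa (8.46 per 100000) and 68 in LNCaP (3.77), a ratio of 2.25, and were listed with no loop in T-47D. HOXA3 had 88 in Ishikawa, 17 in LNCaP (0.942) and 3 in T-47D (0.854), and Ishikawa was 8.98 times LNCaP. HOXA6 had 88 in Ishikawa, 14 in LNCaP (0.775) and 3 in T-47D (0.854, from 1 loop). HOXA7 had its 88 in Ishikawa only, as did HOXA5 its 16 (1.54), HOXA2 its 9 (0.865) and HOXA4 its 3 (0.288). The uterine gene HOXA11 and the limb and genital gene HOXA13 were listed with no loop in any line.

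In Ishikawa, 57% of the HOXA read pairs left on the 3′ side toward SKAP2, an adaptor protein gene, 27% stayed inside and 16% left on the 5′ side. The 28.2 kb anchor had 13 read pairs with HOXA5, 10 with chr7:26744999-26749835 in a SKAP2 intron, 10 with the intergenic chr7:27099168-27107762 and 7 with chr7:27967021-27977149 in an intron of JAZF1, a zinc finger gene. Over several HOXA anchors, chr7:27099168-27107762 had 16 read pairs and chr7:27172113-27178223, in a HOXA3 intron, 11. In LNCaP, 50% left on the 3′ side, 46.3% on the 5′ side and 3.66% stayed inside. The anchor of HOXA9 and HOXA10 had 8 with chr7:26751935-26757401 in a SKAP2 intron 8 with chr7:27972583-27979106 in a JAZF1 intron and 6 with chr7:27954389-27961926 over a JAZF1 exon. SKAP2 promoters had 11 read pairs with HOXA anchors in LNCaP (8 and 3 at different anchors) and 4 in Ishikawa. Other promoters had 3 each, those of JAZF1 in Ishikawa, and of TAX1BP1 and of HNRNPA2B1 with CBX3 in LNCaP. The 1 HOXA loop of T-47D joined the anchor of HOXA3 and HOXA6, which holds the HOXA3 sequence printed above, to chr7:26837136-26840765 in a SKAP2 intron with 3 read pairs.

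HOXD was looped from its middle in Ishikawa. HOXD3 and HOXD8, on 1 anchor (chr2:176993545-177005442) that holds the HOXD8 sequence printed above, had 54 read pairs (5.19 per 100000). HOXD9 (chr2:176986030-176992909) had 38 (3.65). HOXD13, known for its role in the digits, had 3 (0.288). The strongest loop joined HOXD9 to HOXD8 and HOXD3 with 25 read pairs. On the 3′ side, past MTX2, a mitochondrial protein gene, HOXD8 and HOXD3 had 10 with chr2:177490834-177496942 and HOXD9 had 6 with chr2:177501839-177509546, which had 9 in all. On the 5′ side HOXD9 had 4 with chr2:176236088-176251002.

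The absence of HOXD loops did not mean the same in the other lines. T-47D had 2 anchors inside HOXD that covered no member promoter, with 5 loops and 21 read pairs. LNCaP had no anchor inside HOXD, and its nearest anchor lay 909695 bp or more from every HOXD start. Within 1 Mb of HOXD, HOX loops included, there were 82 loops in Ishikawa, 9 in T-47D and 1, with 10 read pairs, in LNCaP. For the loops there that were not HOX loops, the ratios were 2.95 for Ishikawa over T-47D and 72.7 for Ishikawa over LNCaP. No measure of RNA or of copy number was used here, so the part of DNA copy number in any of these levels was not tested.

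**Figure D4:**
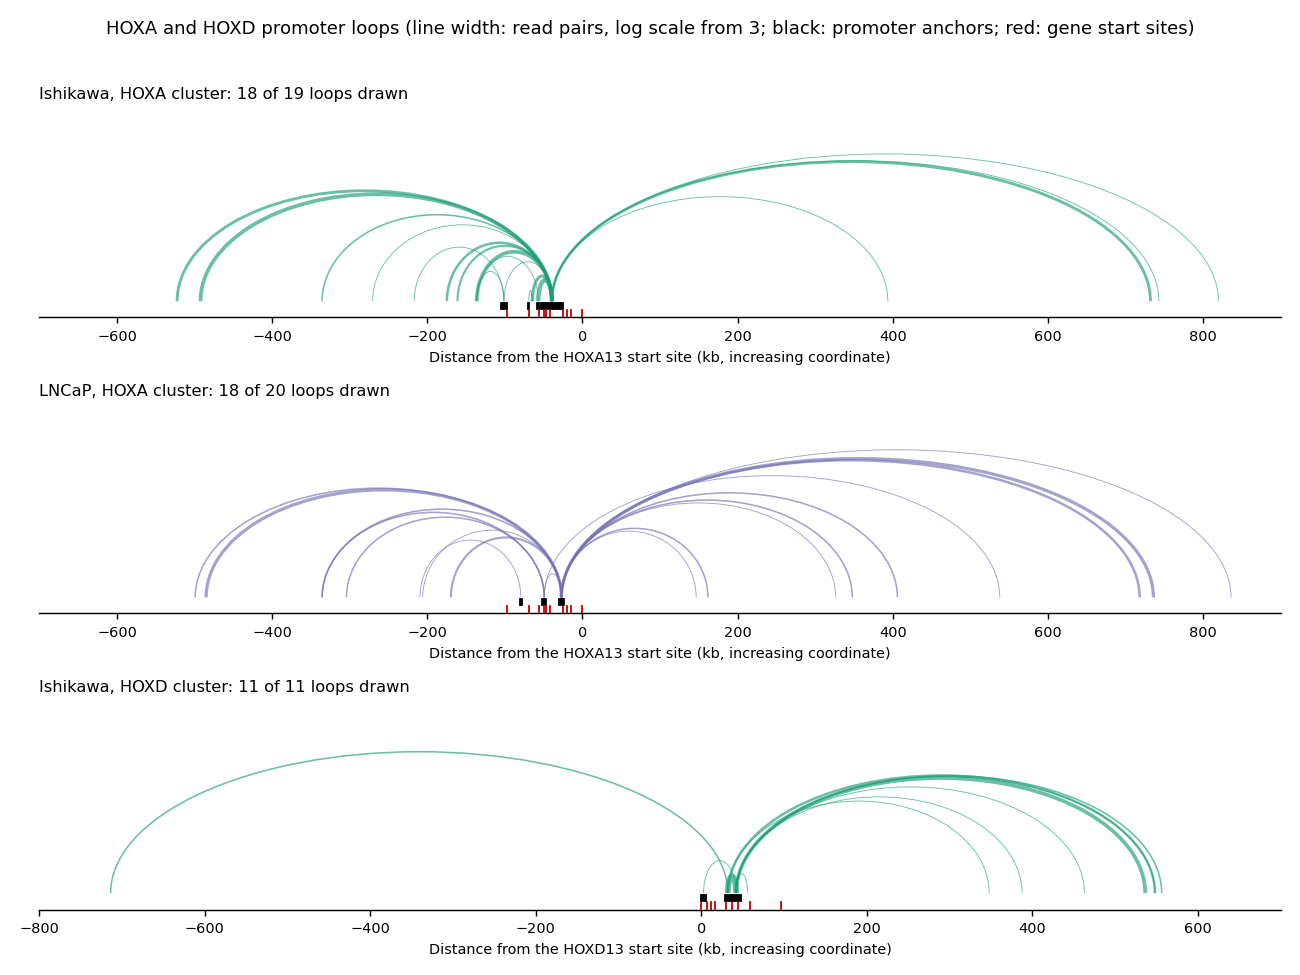
Loops of HOXA promoters in Ishikawa (18 of 19 in view) and LNCaP (18 of 20), by distance in kb from the HOXA13 start, and of HOXD promoters in Ishikawa (11 of 11), by distance in kb from the HOXD13 start, drawn as in the HOXC plot. Both HOXA panels show loops to the 3′ and the 5′ side, and the HOXD loops run mainly inside and to the 3′ side.

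The median span of HOX loops was above that of all promoter loops in each list, but in T-47D only with the weakest loops included. It was 169 kb in Ishikawa (132 to 217), against 43.6 kb over all loops with a protein-coding promoter, 129 kb in T-47D (59.4 to 204) against 90.9 kb, and 245 kb in LNCaP (189 to 286) against 122 kb. The T-47D interval included the value over all promoter loops and the other intervals did not. With a minimum of 5 read pairs the T-47D medians were 46.3 kb for HOX loops and 54.4 kb for all promoter loops. Loops with both anchors inside 1 cluster made up 19.8% of HOX loops in Ishikawa (12.7 to 29.4), 43.4% in T-47D (34.1 to 53.3) and 16.2% in LNCaP (10.4 to 24.4). By read pairs the shares were 33.4%, 76.7% and 26.3%.

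**Figure D5:**
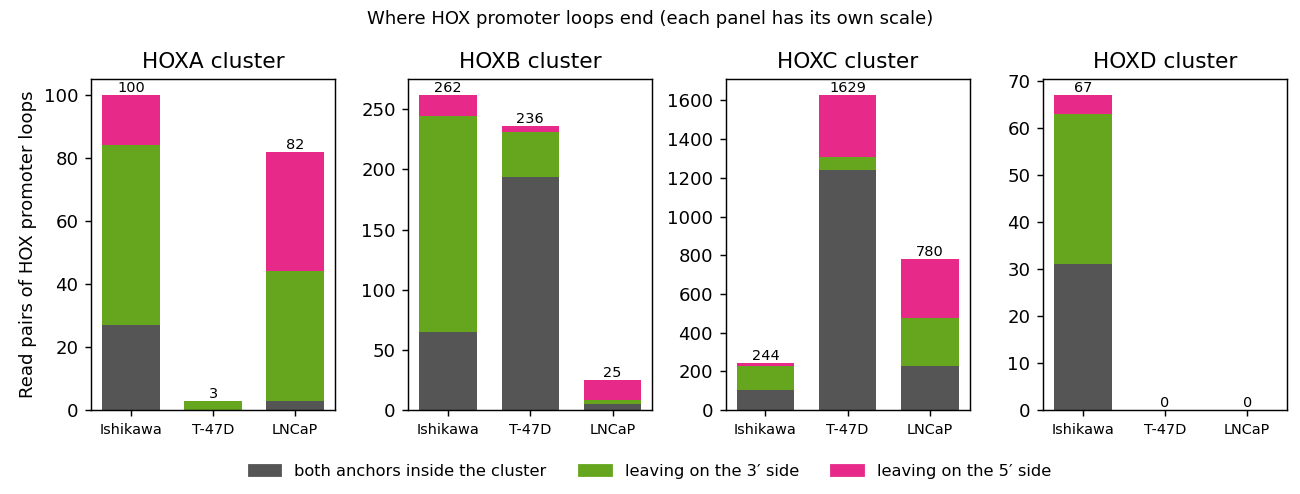
Read pairs of HOX loops (y axis, a scale of its own in each panel) by cluster and line, stacked into loops inside the cluster, loops leaving on its 3′ side and loops leaving on its 5′ side. T-47D HOXC and HOXB are mostly inside, Ishikawa HOXB is mostly on the 3′ side and LNCaP HOXC is spread over the 3 classes.

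The median number of distal anchors per linked member was above that over all linked genes in each list. A distal anchor covers no promoter of a protein-coding gene. At least 1 was linked to 22 members for Ishikawa (59.5%, against 52.5% of all genes), 11 for T-47D (29.7%, against 34.7%) and 10 for LNCaP (27.0%, against 52.4%). The medians over these members were 10, 4 and 10.5, against medians over all linked genes of 3, 2 and 4. The most were 20 for the 6 HOXB genes of the wide Ishikawa anchor, 7 in T-47D for HOXC6, HOXC9 and HOXC11, and 16 in LNCaP for HOXC4 and HOXC6. Members on 1 anchor count the same distal anchors, so these medians hold fewer independent values than members. Partner anchors were distal in 55 cases and over other promoters in 8 in Ishikawa, 16 and 12 in T-47D, and 35 and 17 in LNCaP.

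Counted gene by gene, the members that were higher in T-47D were all in HOXB and HOXC. A gene was counted as higher when its level was 4-fold or more that in the other list. Each list was counted as at least 3 read pairs. This floor may be too low for Ishikawa, where the minimum appeared to apply within each part. T-47D was higher than Ishikawa for 6 of 37 members (HOXB2, HOXB9, HOXC6, HOXC9, HOXC11 and HOXC13). This is 16.2%, beside 27.4% of all genes. It was higher than LNCaP for 8 (HOXB2, HOXB3, HOXB7, HOXB8, HOXC6, HOXC9, HOXC11 and HOXC13), or 21.6%, beside 13.7%. LNCaP was higher than Ishikawa for 3 (HOXC5, HOXC9 and HOXC13), or 8.11%, beside 27.0%. It was higher than T-47D for 3 (HOXA9, HOXA10 and HOXC5), or 8.11%, beside 7.59%. Ishikawa was higher than T-47D for 13 (35.1%, beside 8.74%) and higher than LNCaP for 16 (43.2%, beside 18.1%). For LNCaP over T-47D the share was near that over all genes, and for both lines over Ishikawa it was below. Of these members, the 6 of the wide HOXB anchor and the 5 of the wide HOXA anchor share their values.

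Few HOX loops of 1 list were found in another, meaning that both anchors overlapped those of 1 loop there. Of the 99 T-47D HOX loops, 22 were found in LNCaP (22.2%, 15.2 to 31.4), against 45.9% of all T-47D promoter loops, and 21 of the 22 were in HOXC. Of the 105 LNCaP HOX loops, 17 were found in T-47D (16.2%, 10.4 to 24.4), against 15.6%, and 16 of them were in HOXC. The interval for T-47D loops in LNCaP lay below the share over all promoter loops, and that for LNCaP loops in T-47D included it.

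Sharing with Ishikawa was low on each side. Of the 86 Ishikawa HOX loops, 6 were found in T-47D (6.98%, 3.24 to 14.4), against 5.40% of promoter loops, and 7 in LNCaP (8.14%, 4.00 to 15.9), against 10.9%. Of T-47D loops, 6 were found in Ishikawa (6.06%, 2.81 to 12.6), against 10.3%, and of LNCaP loops 13 (12.4%, 7.38 to 20.04), against 7.37%. The intervals of the first 3 included the values over all promoter loops, whereas that of LNCaP in Ishikawa lay just above. Several of these LNCaP loops matched the same Ishikawa loop, so they are not independent and no excess is read from that interval. Only 1 T-47D HOX loop was found in both other lists.

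The 4 parts of the Ishikawa list, which the files do not assign to samples, gave a view of its spread. Of the 86 HOX loops, 38 were in 2 parts or more (44.2%, against 37.4% of promoter loops) and 8 in all 4. The level of HOXC ran from 20.1 to 31.3 per 100000 over the parts, HOXB from 16.7 to 36.6, HOXA from 5.95 to 15.5 and HOXD from 5.20 to 9.61. Each cluster level of T-47D and LNCaP lay outside the range of its cluster over these parts.

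MicroRNA genes of the clusters also lay in HOX anchors. MIR196B lay in the 28.2 kb HOXA anchor of Ishikawa (88 read pairs), MIR615 in a HOXC4 anchor of Ishikawa (52) and the HOXC5 anchor of LNCaP (170), and MIR10B in a partner of HOXD3 and HOXD8 in Ishikawa (3). Their mature sequences from RefSeq are shown because these loops cannot be told apart from those of the host clusters, with the seed, bases 2 to 8, in capitals. The 5 seeds were all different.
hsa-miR-10b-3p: aCAGAUUCgauucuaggggaau
hsa-miR-196b-3p: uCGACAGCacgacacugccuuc
hsa-miR-196b-5p: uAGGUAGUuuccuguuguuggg
hsa-miR-615-5p: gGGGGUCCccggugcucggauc
hsa-miR-615-3p: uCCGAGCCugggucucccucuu

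Of 18 named long noncoding RNA genes in the clusters, 6 had their start in a member anchor of T-47D, 5 in one of Ishikawa and 3 in one of LNCaP. The share over all long noncoding RNA genes was not computed. These starts lie among member promoters, so the counts are not read as a difference between lines. HOXB-AS2 was the only one in all 3, always in an anchor of HOXB3. HOTAIR, HOXC-AS2 and HOXC-AS1 were in T-47D anchors with 494, 491 and 248 read pairs. The start of HOTAIRM1 was in the Ishikawa HOXA2 anchor with 9.

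Of the 16 genes listed as next to the clusters, 11, 10 and 12 had a promoter loop, in the order Ishikawa, T-47D, LNCaP. The shares over all protein-coding genes were 57.3%, 49.2% and 58.1% in the same order.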

How the data were processed

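H3K27ac HiChIP was deposited as 1 loop list per cell line. The authors aligned the reads to hg19 with HiC-Pro (versions not given in the sources used here), called loops with hichipper, removed loops with few read pairs or a false discovery rate above their limit, and combined samples, DMSO and E2 included. The deposited value of a loop is a count of read pairs joining its anchors, not scaled for depth. Lists of filtered loops hold no pair below 3 read pairs, and a wide anchor holds the read pairs of every promoter in it.

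From these files, the rows of the 4 Ishikawa parts were summed, pairs of an anchor with itself were set aside, and levels were scaled to 100000 read pairs of the list. Promoters were windows of 500 bp on every start site in GENCODE (lift37, release 44), and the sequences came from RefSeq and GRCh37. Shares have Wilson intervals, read pairs exact Poisson intervals and medians distribution-free intervals, all at 95% and for counting error only. Lists were compared by the 4-fold rule and by overlap of both anchors by 1 bp or more. Python 3.11.15, pandas 2.3.3, numpy 2.4.6, scipy 1.17.1 and matplotlib 3.10.9 were used, and the procedures were tested on simulated data.

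All 37 members were accounted for. Other genes and regions were named by rule: per cluster and line the 3 strongest loops, the 3 distal anchors and the 3 outside promoters with the most read pairs, genes next to the clusters where joined to a member, and noncoding RNAs lying in such anchors. A few further distal anchors and promoters were chosen after their values were seen. Counts over the genes for cofactors of HOX proteins are not reported here. The members and lists were chosen with earlier results of these data known. The alternatives were a minimum of 5 or 10 read pairs, lists thinned to the T-47D total, promoters of 2 kb, 1 start site per gene, spans of 20 kb to 1 Mb, Ishikawa loops in 2 or more parts, a 2-fold rule and an overlap of 50% of both anchors.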

Additional observations from a re-analysis of the deposited data

Results flagged for a closer look

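Read pairs that joined a HOX promoter anchor to itself are not loops by the definition used and enter no value above. Ishikawa had 473 such read pairs over 9 of its 14 HOX anchors, 327 of them at the 50.3 kb HOXB anchor and 65 at the 28.2 kb HOXA anchor, which is 0.1% of the self pairs of the list. T-47D had 586 over 9 of its 13 HOX anchors, 154 of them at HOXC6 and 135 at HOXC11, which is 0.19% of the self pairs of the list. The LNCaP list holds no such pair.

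T-47D also had loops from anchors inside HOXD that touched no member promoter, and each of these loops left the cluster. The 5 loops held 21 read pairs, 7 of them between chr2:177004663-177006508, which lies over no member promoter, and chr2:177501696-177503480. The 2 Ishikawa HOXD loops that were counted as found in T-47D matched loops of the first of these anchors.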

How the results depend on the processing

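No paired analysis was possible because each line has 1 merged list. For the same reason no sample was left out and no replicate block was fitted. Some orders between lines turned: HOXB in T-47D and Ishikawa, HOXA9 and HOXC9 in Ishikawa and LNCaP with 1 start site per gene, HOXB in Ishikawa and LNCaP without the 50.3 kb anchor, HOXA in T-47D and LNCaP after thinning, HOXC4 in Ishikawa and LNCaP after thinning and with spans of 20 kb to 1 Mb, and HOXB3 in T-47D and Ishikawa under several settings. The T-47D span fell below that of all promoter loops with higher minima. The HOXC level was highest in T-47D and lowest in Ishikawa under every alternative run. Ishikawa came near LNCaP after thinning (33.0 against 36.9 per 100000) and with a minimum of 10 read pairs (30.7 against 37.4). Values over all clusters are given where they moved by more than the counting error or, for counts, by more than 1.5 times. Loop counts of single clusters also moved, 8 with a minimum of 5 read pairs, 10 with 10 and 7 after thinning, all downward. The HOXC level in T-47D ran from 301 per 100000 with spans of 20 kb to 1 Mb to 710 with 10 read pairs. The cause was not tested, except that stricter settings keep fewer read pairs by construction.

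With a minimum of 5 read pairs, HOX loops numbered 42 for Ishikawa, 64 for T-47D and 60 for LNCaP, and their shares of read pairs were 0.0726%, 0.611% and 0.0459%. In T-47D 59.4% of loops were inside a cluster and the median span was 46.3 kb. In LNCaP the span was 161 kb, and 1 member was higher than in T-47D. With 10 read pairs, loops numbered 23, 35 and 23, shares were 0.0869%, 0.778% and 0.0381%, and spans were 96.9, 25.7 and 154 kb. Inside a cluster were 39.1% in Ishikawa and 74.3% in T-47D. LNCaP had 6 members with a loop and 1 higher than in T-47D, and 8.57% of T-47D loops were found in LNCaP. The median span over all T-47D promoter loops was 54.4 kb with 5 and 28.5 kb with 10 read pairs, above that of the HOX loops.

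With lists thinned to the T-47D total, Ishikawa had 32 HOX loops, a share of 0.0772%, 34.4% inside and a span of 116 kb. LNCaP had 22 loops, a share of 0.0381%, 6 members with a loop, 1 of them higher than in T-47D, and a span of 152 kb. Of T-47D loops 6.06% were found in LNCaP, and of LNCaP loops 27.3% in T-47D. Loops that fell below 3 read pairs were then dropped, so 224207 read pairs were left in Ishikawa and 254751 in LNCaP, against 351260 in T-47D. A loop was then found for 36.3% of all genes and 21 members of Ishikawa, 49.2% and 12 of T-47D, and 41.3% and 6 of LNCaP.

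Promoters of 2 kb gave shares of 0.0721% in Ishikawa and 0.590% in T-47D. With 1 start site per gene the shares were 0.448% for T-47D, 0.0512% for Ishikawa and 0.0399% for LNCaP, and 4 members were higher in T-47D than in LNCaP. HOXC in Ishikawa then had 17 loops and HOXB in T-47D 1. With spans of 20 kb to 1 Mb the shares were 0.0957% in Ishikawa and 0.350% in T-47D, loops inside a cluster were 10.5%, 32.5% and 9.47%, 8 members were higher in Ishikawa than in T-47D and 1 in LNCaP than in T-47D, and 7.37% of LNCaP loops were found in Ishikawa.

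Ishikawa loops in 2 or more parts numbered 38, with a share of 0.0768%, and 6.67% of LNCaP loops were found among them. Without the 50.3 kb HOXB anchor, a setting chosen after seeing the data, the Ishikawa share was 0.0395%, 10 members were higher than in LNCaP, and 2.02% of T-47D loops were found in Ishikawa. A 2-fold rule gave 5 members higher in LNCaP than in Ishikawa. An overlap of 50% of both anchors left 0% of Ishikawa loops found in T-47D or LNCaP, 0% of T-47D loops and 0% of LNCaP loops found in Ishikawa, 2.02% of T-47D loops found in LNCaP and 1.90% of LNCaP loops found in T-47D. Median anchor widths were 5.10 kb for Ishikawa, 2.61 kb for T-47D and 3.23 kb for LNCaP.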
